A study of Camelus bactrianus with 10 samples.

Results

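The miR-15/16 family was examined in small RNA sequencing of exosomes from the plasma of Bactrian camels. Exosomes are membrane vesicles shed by cells that carry RNA through the blood. Its entries were taken from the deposited table by name alone: all entries of miR-15a, miR-15b, miR-16, miR-195, miR-497 and miR-424, from both arms of the hairpin and with any note of changed ends. This gave 17 of the 2581 entries of the table, 8 from 5p arms and 9 from 3p arms, under 12 mature names. The study compared 5 thin camels, weighing 402.6 to 421.2 kg, with 5 normal camels, weighing 452.3 to 492.8 kg. Each library was made from the plasma of 1 animal, and all animals were bled on the same day in the same township. The labels used here give no age and no treatment, and they give no vesicle marker against which the exosomes could be checked. A protocol text mentions 9 libraries, 1 fewer than the 10 samples that are labelled and listed, and this was not settled here.

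A miRNA finds its target messengers mainly through its seed, bases 2 to 8 counted from 1 at the 5′ end, so miRNAs that share a seed can act on overlapping sets of messengers. The family is best known as a brake on cell division and survival: in human and mouse cells its members repress messengers of cyclins and of the survival protein BCL2. The hairpins of miR-15a and miR-16-1 form a cluster that is often deleted in human chronic lymphocytic leukaemia. Those of miR-15b and miR-16-2 lie in an intron of SMC4, a condensin gene, in the human genome, and those of miR-195 and miR-497 form a further cluster. The positions of these hairpins in the camel genome were not looked up here. In blood, miR-16 is abundant in red cells, is often used as a reference miRNA in plasma measurements, and in human plasma is carried largely by Argonaute protein outside vesicles.

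The sequences below are the deposited sequences of the 6 tested 5p entries, shown because they define the family, with the seed in capitals and T written for U.
miR-16-5p: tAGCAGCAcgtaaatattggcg
miR-15b-5p: tAGCAGCAcatcatggtttaca
miR-15a-5p: tAGCAGCAcataatggtttgtg
miR-195-5p: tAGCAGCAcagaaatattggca
miR-497-5p: cAGCAGCAcactgtggtttgt
miR-424-5p: cAGCAGCAattcatgttttga

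All 6 carried the seed AGCAGCA. They differed downstream of it and, for miR-497-5p and miR-424-5p, also at the first base. MiR-16-5p and miR-195-5p were the closest pair, differing at 3 of 22 bases, while miR-15a-5p and miR-15b-5p differed at 4 of 22. Among all entries, 9 held this seed at bases 2 to 8. Of these, 7 were family entries, and the other two were an entry of miR-322-5p, the rodent name of miR-424, and a predicted small RNA, both at low levels.

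The 3p arms of the same hairpins had seeds of their own, which are shown because they make these arms different regulators.
miR-15b-3p: cGAATCATtatttgctgctct
miR-16-2-3p: aCCAATATtattgtgctgctt
miR-16-1-3p: cCAGTATTaactgtgctgctga
miR-424-3p: cAAAACGTgaggcgctgctat

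The entry of miR-16-2-3p began 1 base earlier than the human sequence it was matched to, which shifts its seed, and carried the substitution C11T, with positions counted from the 5′ end of the read. The mature miR-16-5p of both miR-16 hairpins is the same molecule, so its values could not be divided between them. The 3p arms could be told apart: miR-16-2-3p was above miR-16-1-3p in 10 of 10 libraries, with means of 174 and 13.0 normalized counts over all libraries.

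The deposited values were normalized counts, with library totals from 532999 to 757352. Reads per library, estimated by dividing by the unit of which most values are whole multiples, ran from 252631 in thin 2 to 2237451 in normal 5, and normal 5, normal 4 and thin 4 were the 3 deepest. Some values were multiples of 0.5 of that unit, and if this smaller step stood for 1 read, every read number given here would be 2 times as high. Positive values were nearly all at least 5 estimated reads (96.3%), so a value of 0 stood for few reads or none. Entries named after a miRNA cluster known from primates, on human chromosome 19, made up 0.492% of normal 4 and 0.447% of normal 5, against at most 0.0139% of any other library. These 2 libraries therefore stood apart, and results that rest on them are also given without them.

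Of the 17 family entries, 10 passed the filter of at least 10 normalized counts in at least 5 libraries, 6 from 5p and 4 from 3p arms. The family held 1.62 ± 0.21% of all normalized counts in thin camels and 1.99 ± 0.70% in normal camels (SD, n = 5 each). Its share ran from 1.29% to 1.80% in thin camels and from 1.52% to 3.20% in normal camels. The highest value was that of normal 3, and every other library was at or below 2.03%. No test was made on this sum, because its members were chosen by name with earlier results known. The 3p arms made up 2.43% to 4.05% of the family in thin camels and 2.95% to 6.27% in normal camels. The highest shares were those of normal 4 (6.27%) and normal 5 (5.49%). Without them the normal camels ran from 2.95% in normal 1 to 5.00% in normal 2.

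**Figure D1:**
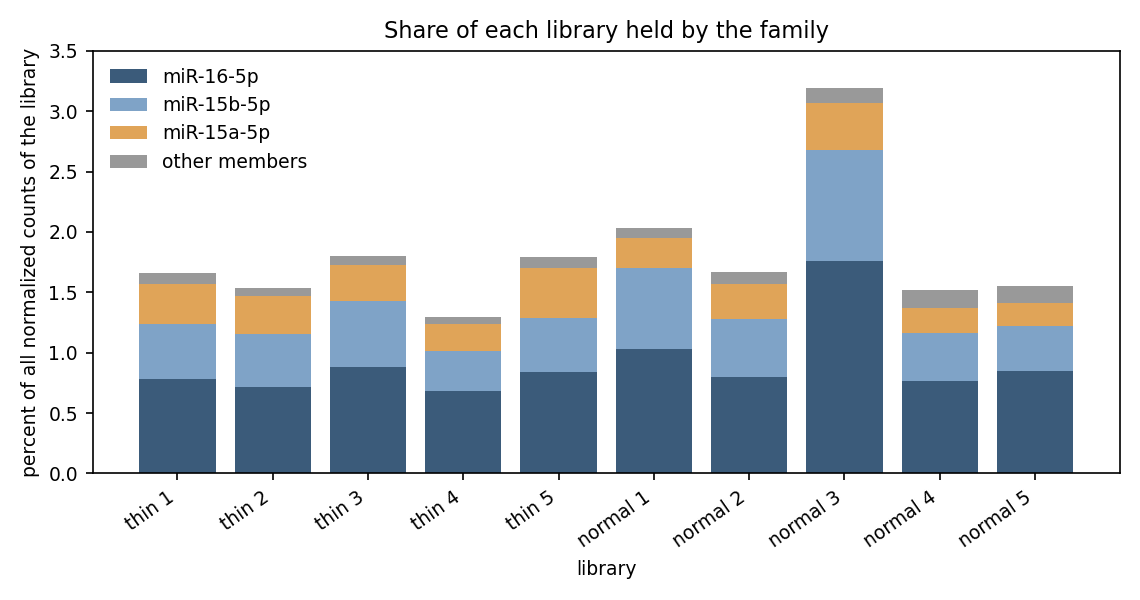
Percent of all normalized counts held by the family in each library (bars), divided into miR-16-5p, miR-15b-5p, miR-15a-5p and all other members. Normal 3 reached 3.20%, and the other 9 libraries lay between 1.29% and 2.03%.

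Among 5p arms the order miR-16-5p, miR-15b-5p, miR-15a-5p held in 10 of 10 libraries. These 3 are of equal length, 22 bases, but ligation during library preparation also affects such levels. MiR-16-5p made up 50.2 ± 2.53% of the family's 5p counts in thin camels and 54.2 ± 3.23% in normal camels. MiR-15b-5p made up 28.2 ± 2.42% in thin and 29.6 ± 3.03% in normal camels, and miR-15a-5p 20.3 ± 2.74% in thin and 14.4 ± 2.54% in normal camels (SD, n = 5 each). The share of miR-15a-5p ran from 17.1% to 24.2% in thin camels and from 12.7% to 18.5% in normal camels, so that the groups overlapped. MiR-424-5p, miR-195-5p and miR-497-5p were far lower, with means of 71.8, 53.8 and 42.4 normalized counts over all libraries against 1939 for miR-15a-5p. Their own order was not stable: miR-424-5p exceeded miR-195-5p in 4 of 10 libraries, and miR-497-5p exceeded miR-195-5p in 2.

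**Figure D2:**
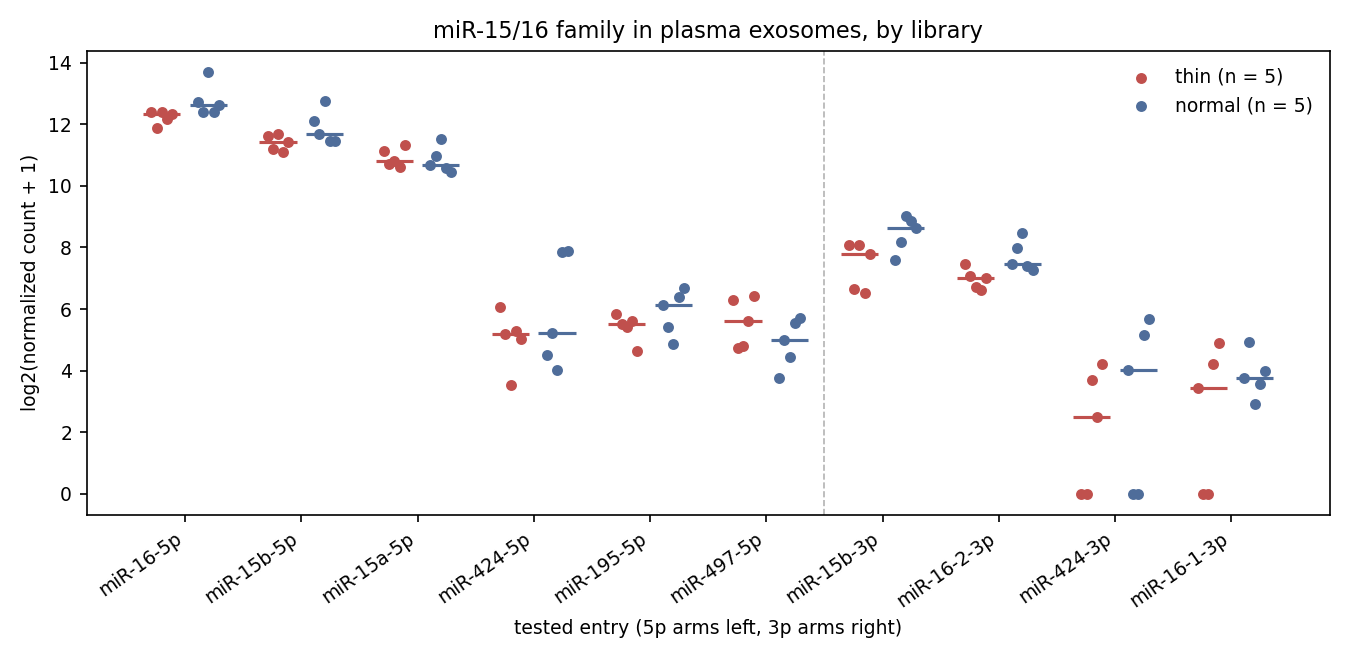
log2(normalized count + 1) of the 10 tested entries in each library (points) with the median of each group (lines), thin left of normal in each pair. MiR-16-5p, miR-15b-5p and miR-15a-5p stood far above the other 5p arms, and the 2 highest points of miR-424-5p are normal 4 and normal 5.

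The comparison of thin with normal camels asked which family members differed in level. Limma was run on log2(value + 1), adjusted over all entries by the Benjamini-Hochberg method at a threshold of 0.05. After this adjustment 0 of 10 family entries passed, against 9 of 468 tested entries (1.92%). At an unadjusted p below 0.05 there were 2 family entries, miR-15b-3p and miR-16-2-3p, against 11.8% of all tested entries. The groups did not overlap in 0 of 10 family entries and in 3.63% of all. By sign alone the log2 fold change was below 0 in 8 of 10 family entries, against 50.6% of all entries, and its median was -0.63 for the family beside -0.01 for all. Members of a cluster share a transcript, so these 10 are not independent. When entries were first summed by mature name, 0 of 10 family sums passed, against 7 of 428 sums in all (1.64%).

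MiR-16-5p, the most abundant member, had 5436, 3803, 5344, 4637 and 5197 normalized counts in thin 1 to 5, against 6766, 5418, 13314, 5419 and 6278 in normal 1 to 5. The thin camels lay close together, and thin 1 lay just above normal 2 and normal 4, so that the groups overlapped by little. The means were 4884 ± 679 in thin and 7439 ± 3335 in normal camels (SD, n = 5 each). The log2 fold change was -0.53 ± 0.25 (SE, 95% interval -1.08 to 0.02, limma adjusted p = 0.460). Without normal 3 it was -0.30 (adjusted p = 0.617).

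MiR-15b-5p, whose hairpin in the human genome lies with that of miR-16-2, had 3163, 2333, 3299, 2197 and 2747 normalized counts in thin 1 to 5, against 4388, 3274, 6983, 2832 and 2803 in normal 1 to 5. Normal 3 was again the highest library, and thin 3 lay above 3 of the 5 normal camels. Its log2 fold change was -0.49 ± 0.27 (SE, limma adjusted p = 0.569), and -0.27 without normal 3 (adjusted p = 0.737).

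MiR-15a-5p, the partner of miR-16-1, had 2244, 1690, 1804, 1562 and 2579 normalized counts in thin 1 to 5, against 1649, 2001, 2955, 1528 and 1382 in normal 1 to 5. The groups covered nearly the same range. The log2 fold change was 0.08 ± 0.25 (SE, 95% interval -0.46 to 0.62, limma adjusted p = 0.925). The interval does not separate a moderately higher level in thin camels from a moderately lower one. The log2 fold change turned to -0.14 without normal 4 and normal 5, and to -0.018 without either thin 5 or normal 5.

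**Figure D3:**
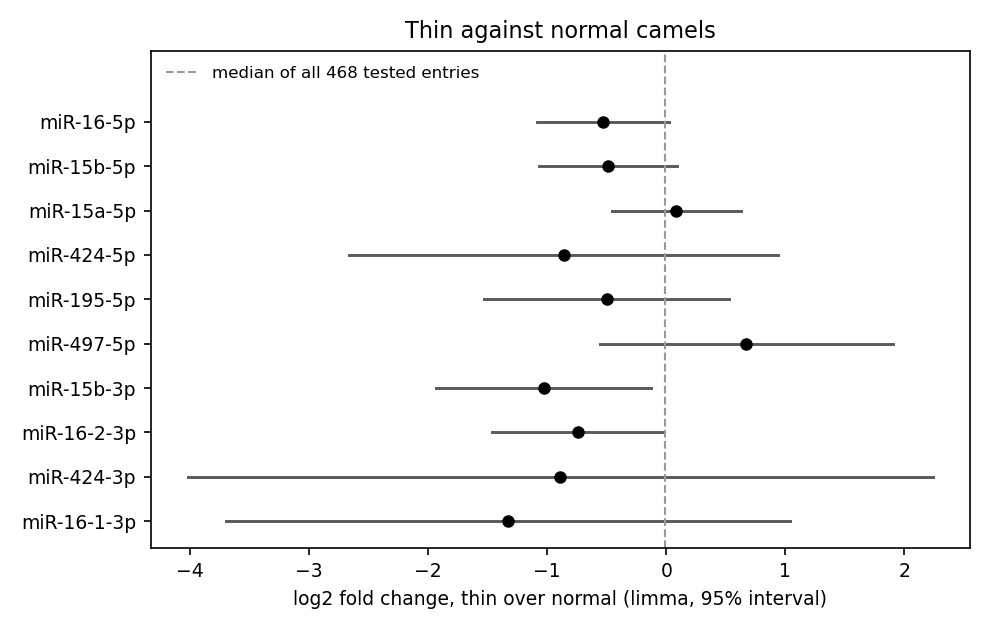
Log2 fold change of thin over normal camels for the 10 tested entries (points) with the 95% interval of limma (lines), and the median of all 468 tested entries (dashed). Only the intervals of miR-15b-3p and miR-16-2-3p leave out 0, and neither entry passed after adjustment.

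All 4 tested 3p arms had log2 fold changes below 0, as did 4 of the 6 tested 5p arms. MiR-15b-3p had 268, 99.2, 272, 90.3 and 222 normalized counts in thin 1 to 5, against 191, 287, 519, 461 and 400 in normal 1 to 5. Normal 1 lay among the thin camels and the other 4 normal camels above all of them. Its log2 fold change was -1.03 ± 0.42 (SE, 95% interval -1.94 to -0.13, limma adjusted p = 0.314). Without normal 4 and normal 5 it was -0.83 (limma adjusted p = 0.646), and without the 3 deepest libraries -0.61 (limma adjusted p = 0.810).

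MiR-16-2-3p had 176, 135, 103, 97.2 and 127 normalized counts in thin 1 to 5, against 173, 253, 356, 166 and 154 in normal 1 to 5. Thin 1 exceeded 3 normal camels, and the other 4 thin camels lay below all normal ones. The log2 fold change was -0.74 ± 0.33 (SE, limma adjusted p = 0.405), and -0.55 without normal 3 (adjusted p = 0.611).

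MiR-16-1-3p was near the limit of detection, with at most 45 estimated reads. It was listed at 0 in thin 2 and thin 3, at 9.87, 17.5 and 28.6 normalized counts in thin 1, 4 and 5, and between 6.63 and 29.4 in the normal camels. Its log2 fold change of -1.33 ± 1.09 (SE, limma adjusted p = 0.695) rests on the libraries at 0 and was -0.70 without either thin 2 or thin 3.

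MiR-424-5p, a member known from myeloid differentiation and from the response of blood vessels to low oxygen, had 65.8, 35.9, 10.7, 38.3 and 31.7 normalized counts in thin 1 to 5, against 21.5, 36.3, 15.1, 229 and 233 in normal 1 to 5. Normal 4 and normal 5 were at least 3 times any other library, while the other 3 normal camels lay within the range of the thin ones. The log2 fold change was -0.86 ± 0.83 (SE, limma adjusted p = 0.734), and without normal 4 and normal 5 it turned to 0.45 (adjusted p = 0.867). Its lowest value, that of thin 3, rests on 8 estimated reads.

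MiR-424-3p was also highest in normal 4 and normal 5, at 34.7 and 50.1 normalized counts, listed at 0 in thin 1, thin 2, normal 2 and normal 3, and at most 17.5 elsewhere. Its log2 fold change was -0.89 ± 1.44 (SE, limma adjusted p = 0.848), and 0.74 without these 2 libraries. Endothelial and smooth muscle miRNAs made up 2.0% of normal 4 and 2.67% of normal 5, against 0.588% in normal 3 to 2.76% in thin 1 for the other libraries. Within that list miR-143-3p and miR-145-5p were highest in normal 5 and normal 4, while miR-145-3p, at 8.91 in normal 4 and 15.6 in normal 5, was highest in thin 1 (79.0), and miR-143-5p was listed at 0 in both. MiR-126-3p, the most abundant of that list, was highest in thin 1 (13557), against 8962 in normal 4 and 12090 in normal 5. MiR-126-5p was highest in normal 5 (5851), with 3999 in normal 4 and 4726 in thin 1. Normal 4 and normal 5 are also the libraries with the primate cluster entries and the 2 deepest ones. The part of depth, of those entries and of other cell types in the values of miR-424 was not tested.

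MiR-195-5p, which in mice restrains the division of heart muscle cells after birth, had 55.9, 44.3, 41.5, 48.4 and 23.8 normalized counts in thin 1 to 5, against 69.6, 41.5, 28.4, 82.5 and 102 in normal 1 to 5. Its 2 highest libraries were again normal 5 and normal 4. The log2 fold change was -0.50 ± 0.47 (SE, limma adjusted p = 0.731), and -0.08 without normal 4 and normal 5.

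MiR-497-5p, from the same cluster as miR-195, had 77.3, 25.3, 26.7, 47.5 and 85.7 normalized counts in thin 1 to 5, against 12.7, 31.1, 20.8, 45.6 and 51.7 in normal 1 to 5. It had the highest fold change of the family, 0.67 ± 0.57 on the log2 scale (SE, limma adjusted p = 0.708), with thin 5 and thin 1 above all normal camels and thin 2 and thin 3 below 3 of them. The lowest value, that of normal 1, rests on 10 estimated reads. Without normal 1 the log2 fold change was 0.39, the lowest of 0.39 to 0.88 with single libraries left out, and without normal 4 and normal 5 it was 1.16.

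The other 7 entries did not pass the filter and were listed above 0 in at most 3 libraries. The highest value among them was 12.7 normalized counts, for an entry of miR-15b-3p in thin 2. All the others were at or below 11.5 normalized counts, the value of miR-195-3p in thin 1. They comprised the only entry of miR-15a-3p (with the substitution A22T), both entries of miR-195-3p, and 4 entries of miR-15b named after the platypus.

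Ratios between members of 1 library do not depend on how that library was scaled. Of 13 ratios taken within a library, 9 had values above 0 in all libraries and were tested by exact permutation of the group labels, two-sided. Among the 9 was miR-16-5p over miR-451a, which is not a family member. The ratio of miR-15a-5p to miR-16-5p was 0.413, 0.444, 0.338, 0.337 and 0.496 in thin 1 to 5, against 0.244, 0.369, 0.222, 0.282 and 0.220 in normal 1 to 5. Only normal 2 lay among the thin camels. The difference was 0.61 on the log2 scale (exact permutation p = 0.0238, adjusted p = 0.107 over the 9 ratios). The ratio of miR-15a-5p to miR-15b-5p was 0.709, 0.724, 0.547, 0.71 and 0.939 in thin 1 to 5, against 0.376, 0.611, 0.423, 0.540 and 0.492 in normal 1 to 5, a difference of 0.57 (exact permutation p = 0.0159, adjusted p = 0.107). Thin 3 was the only thin camel below a normal one. Thus miR-15a-5p had a higher mean relative to both abundant partners in thin camels, but neither ratio passed after adjustment. The test had little room to call a ratio. Even at its smallest possible exact permutation p, 0.00794, 1 ratio alone would not pass after adjustment over 9. MiR-15b-5p relative to miR-16-5p differed by 0.04 (exact p = 0.714), with ranges of 0.475 to 0.617 in thin and 0.447 to 0.649 in normal camels.

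**Figure D4:**
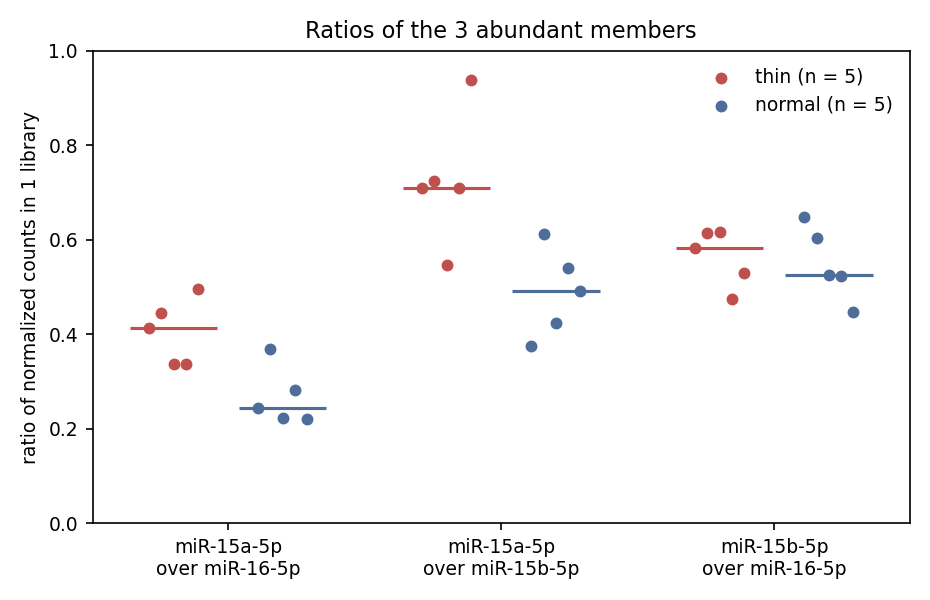
Ratio of normalized counts of 2 members in each library (points) with the median of each group (lines), thin left of normal. For miR-15a-5p over miR-16-5p the thin camels lay between 0.337 and 0.496 and the normal camels between 0.220 and 0.369, while miR-15b-5p over miR-16-5p covered much the same range in both.

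The arms of 1 hairpin come from the same precursor, and their ratio gives the level of the 5p arm relative to the 3p arm. Which strand was kept was not measured, and ligation can affect such ratios too. MiR-15b had 11.8 to 24.4 counts of the 5p arm per count of the 3p arm in thin camels and 6.15 to 23.0 in normal camels, a log2 difference of 0.52 (exact permutation p = 0.294). Its 2 lowest ratios were those of normal 4 and normal 5, and without them the difference was 0.03. For miR-16 no such ratio of 1 hairpin can be had, since its 5p arm comes from both hairpins. Counts of miR-16-5p per count of miR-16-2-3p were 28.2 to 51.9 in thin and 21.5 to 40.8 in normal camels (exact p = 0.389). MiR-497-5p relative to miR-195-5p, its cluster partner, had a log2 difference of 1.20 (exact p = 0.0794, adjusted p = 0.238), being 0.571 to 3.60 in thin and 0.182 to 0.750 in normal camels. Without thin 5, which had the highest ratio, the difference was 0.78, and without normal 1, which had the lowest, 0.85. The ratios of miR-195-5p and miR-424-5p to miR-16-5p had log2 differences of 0.02 and -0.35 (exact p = 0.937 and 0.770).

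Because miR-16 is abundant in red blood cells, red cell miRNAs are given beside it. The list of miR-451a, miR-144 and miR-486 with their arms held 7.75% to 14.9% of thin and 14.7% to 28.5% of normal libraries, and the log2 fold change was below 0 for all 7 tested sums (median -1.41). MiR-486 fell (log2 fold change -1.41, limma adjusted p = 0.00864), while miR-451a had -0.92 (adjusted p = 0.149). Normal 3, the highest library of miR-16-5p, miR-15b-5p and miR-15a-5p, was also the highest of miR-451a, with 136715 normalized counts. The other normal camels did not keep this order. Normal 2, next highest of miR-451a (97534), had the lowest miR-16-5p of the normal camels (5418). Normal 1, the lowest normal camel for miR-451a (56606), had the next highest miR-16-5p (6766). The log2 ratio of miR-451a to miR-23a-3p, a common measure of red cell lysis in plasma, was 2.80 to 4.68 in thin and 3.88 to 6.16 in normal camels, again highest in normal 3. This ratio does not follow miR-451a alone. MiR-23a-3p averaged 3654 ± 727 normalized counts in thin and 2615 ± 838 in normal camels (SD, n = 5 each). MiR-16-5p relative to miR-451a differed by 0.39 on the log2 scale (exact permutation p = 0.206), and by 0.24 without normal 2, within a range of 0.24 to 0.52 with single libraries left out. The part of red cells in the family's values was not tested, and in plasma fewer vesicles of a kind and less RNA per vesicle cannot be told apart.

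Relatives of the family share part of the seed or a cluster with it. MiR-103a-3p and miR-107, which regulate lipid and insulin metabolism in mice, carry the letters AGCAGCA 1 base nearer to the 5′ end, which gives them another seed, shown in capitals for comparison.
miR-103a-3p: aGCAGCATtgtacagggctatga
miR-107: aGCAGCATtgtacagggctat

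All 3 tested sums of the 9 in that list had log2 fold changes at or below 0, with a median of -0.11, and 0 passed. MiR-103a-3p averaged 3787 ± 643 normalized counts in thin and 3864 ± 678 in normal camels (log2 fold change -0.03, limma adjusted p = 0.976). MiR-107 had -0.11 (adjusted p = 0.908). Its entry of 21 bases is identical to the start of the 23 bases of miR-103a-3p, so reads of these miRNAs could not be told apart there.

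The remaining marker lists describe the mixture of cells behind the libraries. Platelet and myeloid miRNAs held 6.28% to 10.2% of thin and 4.78% to 7.90% of normal libraries, with a median log2 fold change of -0.01 over 7 sums and 3 of them above 0. MiR-223-3p, a miRNA of neutrophils and monocytes, had 0.96 (limma adjusted p = 0.148), and miR-191-5p, the most abundant of the list, -0.09. Leukocyte miRNAs held 1.81% to 6.10% of thin and 2.50% to 4.17% of normal libraries, with a median of 0.17 over 5 sums and 4 of them above 0. MiR-142-3p averaged 2433 ± 1194 normalized counts in thin and 1062 ± 239 in normal camels, 1.11 higher on the log2 scale (limma adjusted p = 0.130), and the groups did not overlap. The other arm of its hairpin, miR-142-5p, had -0.13, and miR-150-5p, miR-155-5p and miR-146a-5p had 0.11, 0.17 and 0.29. Liver miRNAs held 1.36% to 9.80% of thin and 3.14% to 13.3% of normal libraries, with a median of -0.61 over 4 (miR-122-5p -0.66, miR-192-5p -0.87). Endothelial and smooth muscle miRNAs, miR-126 included, held 1.21% to 2.76% of thin and 0.588% to 2.67% of normal libraries, with a median of -0.08 over 5. No sum of these 4 lists passed.

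Across the 10 libraries, the sums most like miR-16-5p by Spearman correlation of normalized values, among 427 others, were let-7g-5p (0.92), let-7a-5p (0.85) and the predicted PC-5p-91695_50 (0.84). PC-5p-91695_50 was very low, listed at 0 in thin 2, thin 3 and normal 2 and at most 24.0 normalized counts elsewhere. MiR-15b-5p came 12th at 0.76 and miR-16-2-3p 15th at 0.73. MiR-15a-5p, whose hairpin in the human genome is clustered with a miR-16 hairpin, came only 158th at 0.08. For miR-15b-5p, miR-16-5p came first (0.76), and the closest sums outside the family were the predicted PC-5p-25657_242 (0.73), PC-5p-11091_555 (0.72) and PC-3p-1992_4114 (0.71). These correlations are descriptions over libraries that share the same scaling, and they were picked as the highest of many, so no p is given.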

How the data were processed

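Ultracentrifugation gave the exosomes, per the labels' protocols; RNA was taken with a mirVana kit, libraries were made with a TruSeq small RNA kit, and reads were filtered with ACGT101-miR. The sources used here name neither the mapping reference nor the normalization factor. The deposited values were a signal, named normalized counts per the file headers. Of 2581 entries 969 had a miRNA name; 2 empty lines were left out. Values were mostly multiples of 1 unit per library (85.5% to 88.9% of positive values, and 97.0% to 99.6% among predicted entries, within 0.02), and most others of 0.5 of that unit; dividing by it gave estimated reads, used for depth and for 1 alternative only. Counting error is only part of the spread.

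The family members, the lists and the tests were chosen with earlier results of these data known. Values were analysed as log2(value + 1), which understates changes of low entries, for entries at 10 or more in at least 5 libraries (468), with limma 3.58.1 in R 4.3.3, group as the only term and a mean trend. For sums, each distinct sequence of a mature name was counted once. Ratios used exact permutation in scipy 1.17.1 with Python 3.11.15; the smallest possible p is 0.00794. In full are given the highest entry of each tested name; for likeness, the 3 sums of highest Spearman correlation. Members of the marker lists were named after their values were seen. Near-identical members can share reads. Alternatives covered pseudocount, filter, scaling, trend, a common floor, a replicate block and left-out libraries. The script was tested on simulated data.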

Additional observations from a re-analysis of the deposited data

Results flagged for a closer look

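MiR-16-5p in normal 3 stood apart from its group: it had 13314 normalized counts, and the next highest normal camel had 6766. The log2 ratio of miR-497-5p to miR-195-5p in normal 1 was -2.46, far below the next lowest normal camel at -0.99. A gap this large, over 0.71 of the range of a group of 5, was found in 2 of 40 groups examined, and chance gives it in about 5% of groups.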

How the results depend on the processing

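No family entry passed in any of 21 alternatives (208 values, smallest limma adjusted p = 0.201). The counts of called entries, sums and ratios were 0 throughout, also with each library left out in turn. For ratios this says little, since fewer libraries raise the smallest possible exact p. With the replicate block the counts were 0 as well, but the smallest possible permutation p was then 0.0625, so no ratio could pass. Same-numbered animals correlated between -0.20 and 0.52, over 0.1 in 3 of 5 pairs. No label ties the numbers across groups, so they were not used as pairs. Of the 208 values 200 kept their sign. Without normal 4 and normal 5, log2 fold changes turned to -0.14 (miR-15a-5p), 0.74 (miR-424-3p) and 0.45 (miR-424-5p), and without the 3 deepest libraries, an alternative chosen after seeing the data, to -0.060, 0.64 and 0.39. The differences of log2 ratios turned in these 2 settings to -0.075 and -0.015 for miR-15b-5p over miR-16-5p and to 1.16 and 1.08 for miR-424-5p over miR-16-5p, and in the second to -0.13 for the arms of miR-15b. With single libraries left out, miR-15a-5p ran from -0.018 to 0.26, and the ratios to miR-16-5p from -0.48 to 0.26 for miR-195-5p, -1.06 to 0.24 for miR-424-5p and -0.031 to 0.10 for miR-15b-5p; the cause was not tested. The family's share differed by -0.38 percentage points, and by -0.49 to -0.08 with single libraries left out (nearest to 0 without normal 3). Equal library totals moved the median log2 fold change of all entries to 0.17, with miR-16-5p at -0.34 and miR-15a-5p at 0.27. Among all entries, 9 were called, but 15 with no filter, 4 without trend, 3 without normal 4 and normal 5 and 5 without the 3 deepest, and without 1 library 6 to 11; for sums 7 were called, but 13, 2, 1 and 1, and 11 with a filter of 10 or more in every library. Few reads limit miR-424, miR-195, miR-497 and miR-16-1-3p in the shallow libraries.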
